A study of Mus musculus with 8 samples.

Results

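The 35 genes described here encode enzymes of glycolysis and of lactate formation, the carriers of glucose, lactate and pyruvate, a subunit and 2 kinases of pyruvate dehydrogenase, 4 enzymes of the pentose phosphate pathway, and the phosphoglucomutases and synthase that lead to glycogen. They were chosen by function, from a list of symbols and with earlier results of these data known. All 35 were matched to gene identifiers of a table of 15681 genes. Of these, 34 were tested among 12441 genes that reached 1 RPM (a gene's estimated reads relative to the effective size of its library) in at least 2 libraries. The exception was Ldhb, which encodes the heart-type subunit of lactate dehydrogenase and was at 0.222 to 0.728 RPM in the 8 libraries.

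RNA was sequenced from B lymphocytes that had been sorted from spleens of mice aged 8 to 10 weeks. The cells were activated in culture with lipopolysaccharide (LPS, 20 µg/ml), a bacterial product that drives B cells to divide, and the cytokine interleukin 4 (IL-4, 20 ng/ml), and were collected after 72 h. There were 4 groups of 2 libraries, namely heterozygous mice (control), Myc knock-out (Myc_KO), Max knock-out (Max_KO) and double knock-out (double_KO). The labels do not say which allele the controls carry, which Cre or cell type the deletion depends on, or whether 2 libraries of one group stem from different animals. The p-values therefore describe the spread among these 8 libraries and no more.

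Glycolysis splits glucose into pyruvate and yields ATP and NADH. When lymphocytes are activated they take up more glucose, and much of the pyruvate is reduced to lactate, which leaves the cell through proton-linked carriers. Myc needs Max as its partner to bind DNA, and in dividing cells the pair is known for binding and inducing many genes of this pathway, and the hypoxia-inducible factor HIF-1, a dimer of Hif1a and Arnt, is the other textbook regulator of the same genes.

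The labels disagree on 2 of the 8 libraries. By description and genotype field these are Myc_KO replicate 1 and double_KO replicate 2, and by title each has the other genotype. Max was at 55 and 54.5 RPM in the controls and at 16.4 and 15.5 in Max_KO. In the pair titled double_KO it was at 28.6 and 31.2, and in the pair titled Myc_KO at 70.4 and 59.8, so in both disputed libraries Max fits the title and not the description. Myc was at 111 and 116 RPM in the controls, 192 and 176 in Max_KO, 38.7 and 55.3 in the pair titled double_KO and 48.3 and 55.7 in the pair titled Myc_KO. Groups were therefore taken both ways. Below, values are given in the order controls, Max_KO, the pair titled double_KO and the pair titled Myc_KO. In each titled pair the first library is described as Myc_KO and the second as double_KO, so that either grouping can be read from the same sentence. Libraries that are left out of a fit are named by their description.

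Libraries held 14.88 to 17.91 M estimated reads. The B cell markers Cd79a and Cd79b, which encode the signalling chains of the B cell receptor, were high in all 8 libraries. Cd79a was at 973 and 963 RPM in the controls, against 878 to 1161 over the 6 knock-out libraries, and Cd79b at 1076 and 1062 against 970 to 1219. Not all B cell markers were level, since Ms4a1 went from 448 and 399 RPM to 933 to 1377 and Pax5 from 382 and 375 to 979 to 1406. Both rose in each comparison with the control under both groupings by limma. The 6 T cell markers (Cd3e, Cd3d, Cd3g, Cd4, Cd8a, Trac) summed to 2.37 and 2.49 RPM in the controls, against 11.7 to 33.8 in the knock-out libraries, with Cd3e at 0 in control 1. Of 4 NK cell markers, the 3 in the table summed to 0.0606 and 0.187 against 1.72 to 7.64, with Ncr1 and Klrk1 at 0 in both controls. Of 6 myeloid markers, the 5 in the table summed to 14.1 and 14.5 against 14.5 to 33.1 and did not move together, with Cd68 at 12 and 10.7 against 3.2 to 6.32 and Adgre1 at 0.809 and 1.76 against 5.43 to 27.1. The 5 plasma cell markers summed to 1206 and 1259 against 574 to 1100 and were not alike either. Xbp1 was at 793 and 680 RPM in the controls and lower in the others (225 to 431), while Sdc1, at 5.98 and 5.94 in the controls, was at 2.94 and 3.02 in Max_KO and at 8.23 to 16.5 in the other 4. Prdm1 was at 39 and 39.1 against 18.5 to 69.2, Jchain at 210 and 255 against 35.4 to 281 and Irf4 at 211 and 226 against 195 to 341. None of 4 erythroid markers was in the table. These measures moved with the groups, and their part in the changes of the glycolysis genes was not tested. In bulk samples of this kind, fewer cells of a type and less RNA per cell cannot be told apart.

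As a sum, the 35 genes took 2.09% and 2.07% of the estimated reads in the controls. They took 1.44% and 0.935% in Max_KO, 0.973% and 1.02% in the pair titled double_KO and 0.601% and 0.593% in the pair titled Myc_KO. Each of the 6 knock-out libraries was below both controls, and the pair titled Myc_KO was lowest. In RPM the sum was at 53% of the control mean in Max_KO, 44% in the pair titled double_KO and 25.9% in the pair titled Myc_KO. Grouped by description it was at 34.6% in Myc_KO and 35.3% in double_KO. Transcripts of mitochondrial DNA were likewise at 5.69% and 4.93% of the reads in the controls, against 2.21% to 2.96% in the knock-out libraries.

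**Figure D1:**
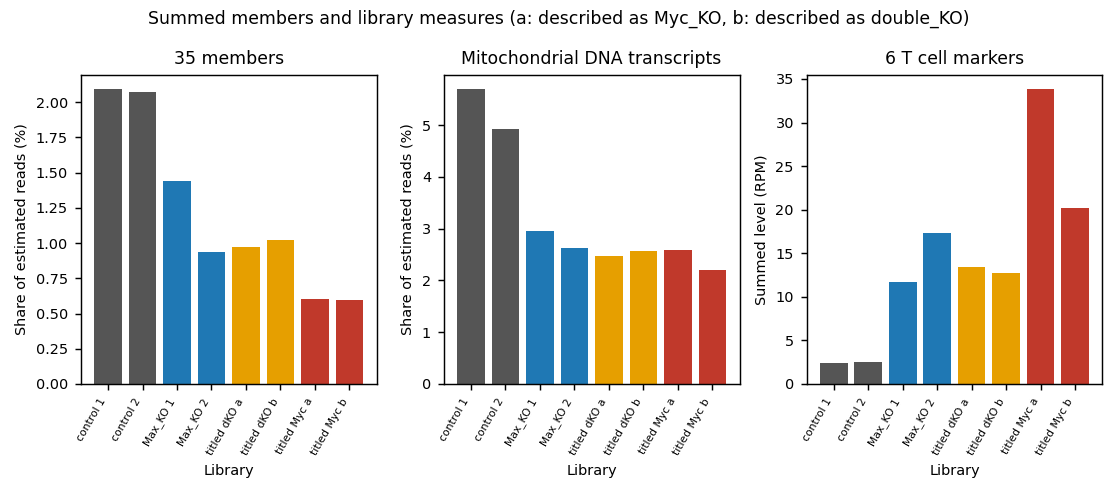
Share of estimated reads taken by the 35 genes (left) and by transcripts of mitochondrial DNA (middle), in percent, and the summed level of 6 T cell markers in RPM (right); 1 bar is 1 library, colours are the groups by title, and a and b are the libraries described as Myc_KO and double_KO. The 35 genes took 0.601% and 0.593% of the reads in the pair titled Myc_KO, the lowest 2 bars of the left panel.

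Grouped by description, limma with Benjamini-Hochberg adjustment over all tested genes called 24 of the 34 tested members lower in Myc_KO than in control, where 18.7% of all genes were called lower, and 2 higher, where 22.3% of all genes were. In Max_KO 11 were lower (16.7% of all genes) and 2 higher (21.5%), and in double_KO 25 were lower (19% of all genes) and 2 higher (23.4%). The median log2 change of the members was -1.44, -0.76 and -1.38 in Myc_KO, Max_KO and double_KO, and that of all genes was 0.01, 0.02 and 0.02. Grouped by title, 26 members were lower in Myc_KO (21.4% of all genes) and 2 higher (24%). Max_KO then had 21 lower (17.4%) and 2 higher (22.4%), and double_KO had 24 lower (16.8%) and 2 higher (21.9%), with medians of -1.69, -0.76 and -1.01. These 3 comparisons share the 2 control libraries. The Max_KO and control libraries are the same under both groupings, so the log2 changes in Max_KO are equal. The Max_KO calls differ because the estimate of the spread, which the 4 groups share, and with it the adjusted p change with the other groups.

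The same 2 members, Pdk2 and Pgm2, were the higher ones in each of the 3 comparisons and under both groupings, where 16.6% of all genes by description and 17.3% by title were higher in all 3. By description, 10 members fell in all 3 groups, namely Slc2a3, Gpi1, Pfkm, Aldoa, Gapdh, Eno2, Mpc1, Pgd, Tkt and Pgm1, where 11.5% of all genes were lower in all 3. By title 20 did (12.1% of all genes), with Pfkl, Aldoc, Tpi1, Pgk1, Pgam1, Eno1, Pkm, Ldha, Slc16a3 and Pdk1 in addition. No comparison with the control called G6pdx, Mpc2, Pdha1, Pfkfb4 or Taldo1 under either grouping, and Pfkfb3 was called in 1, in Myc_KO by title.

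**Figure D2:**
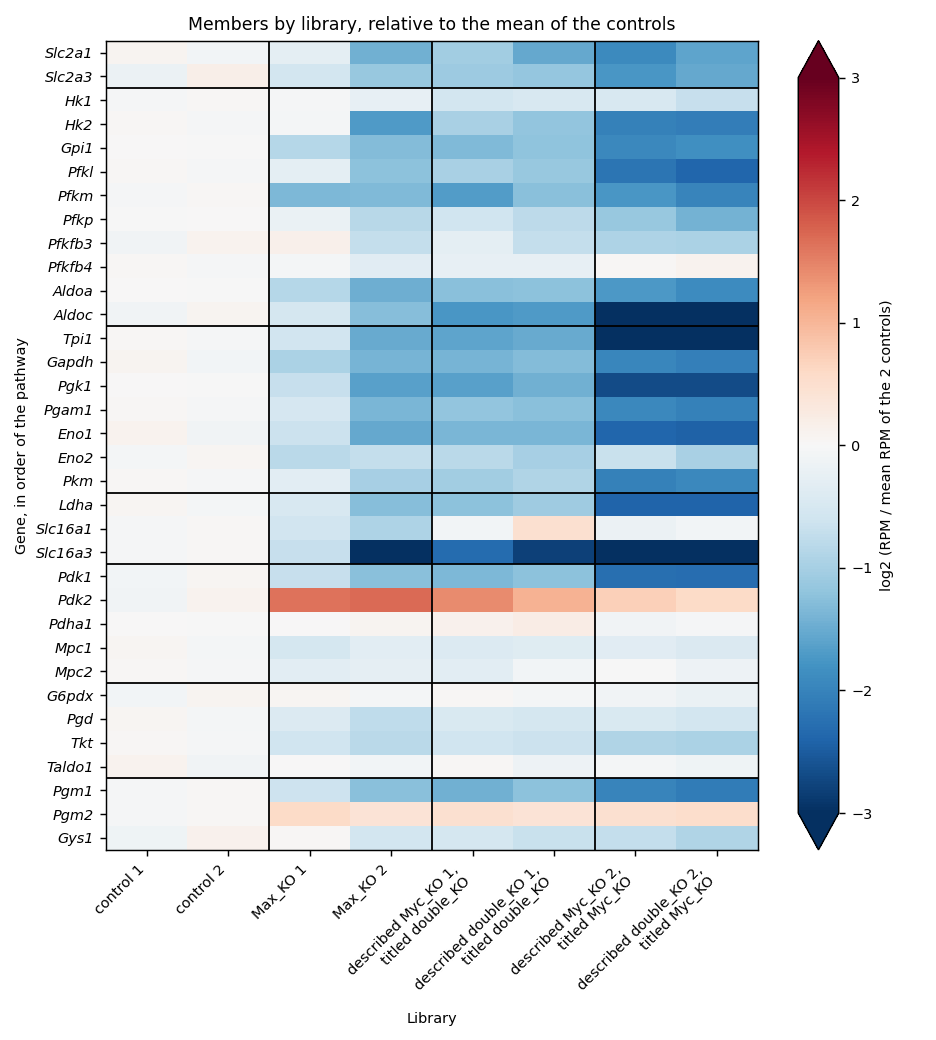
Level of the 34 tested members (vertical axis, in pathway order) in each library (horizontal axis) as the log2 ratio to the mean of the 2 controls, with lines between roles and between groups by title; the colour scale ends at 3 and values beyond it have the end colour. Most enzymes from Gpi1 to Ldha are below the controls in the 6 knock-out libraries and lowest in the pair titled Myc_KO, while Pdk2 and Pgm2 are above the controls in all 6.

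Many of the calls by description depended on single libraries. Leaving out a library leaves a single one in its group, and the share of all genes called in such fits was not computed. Whether the drop in calls is particular to the members was thus not tested. Without control 1 the members called lower were 11 in Myc_KO, 2 in Max_KO and 13 in double_KO, and without control 2 they were 13, 4 and 15. Leaving out Myc_KO 2 gave 12 in Myc_KO, leaving out Max_KO 2 gave 5 in Max_KO and leaving out double_KO 2 gave 14 in double_KO. Calls that held without any single library were 10 of 26 in Myc_KO, 3 of 13 in Max_KO (Pfkm, Eno2 and Pdk2) and 12 of 27 in double_KO. By title they were 22 of 28 in Myc_KO, 9 of 23 in Max_KO and 18 of 26 in double_KO. For Max_KO by title the members called lower fell to 11 without control 1 and to 10 without control 2. The numbers in the sample titles lie in the 30s or the 40s, and the labels do not call this a batch. With this number series as a term, 26, 22 and 24 members were lower in Myc_KO, Max_KO and double_KO by title. By description 0 were lower in double_KO and 5 in Max_KO, because both controls and both libraries described as Myc_KO carry numbers in the 30s and both described as double_KO carry numbers in the 40s. Within the 30s alone, 25 were lower in Myc_KO by description.

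Promoters were compared by the letters they hold. RefSeq promoters (GRCm38.p6, 250 bases before to 50 after a start) were found for 34 of the 35 genes, Slc2a3 not among them, and numbered 50. The palindrome CACGTG, the E-box that Myc and Max bind, was present in 5 of the 50 (10%) and in 7.15% of all 32851 promoters. These were the promoters of Ldha, Pdk2, Pfkfb3, Pfkm and Slc16a1. The core of the HIF-1 site, ACGTG or GCGTG on either strand and outside a CACGTG, was present in 37 (74%), against 40.4% of all promoters. Counted by gene, the shares were 14.7% of the 34 members against 8.09% of all genes for CACGTG. For the HIF-1 core they were 85.3% against 43.3%. Member promoters were richer in G and C, with a median of 61% against 52.7% and a median of 20 CG pairs against 7, which bears on the frequency of letters that contain CG. A match describes the sequence and is not a measured binding site. The windows of 24 bases around CACGTG, in capitals, are shown for the members other than Ldha because these genes differ in what they did (Pfkm fell, Pdk2 rose, Slc16a1 passed the test in Max_KO and Pfkfb3 was called in 1 comparison of 6). They lie at chr15:98092444-98092467 (plus strand), chr11:95041483-95041506 (minus), chr3:104638455-104638478 (plus) and chr2:11502129-11502152 (minus) of GRCm38 and are written 5′ to 3′ on the gene's strand.
Pfkm: taagtatgcCACGTGaagtaagta
Pdk2: gaggagagcCACGTGtcgaagcgc
Slc16a1: gcgccgggtCACGTGgcgggaagg
Pfkfb3: ccttctctcCACGTGaaagggggc

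Slc2a1 and Slc2a3 encode GLUT1 and GLUT3, facilitative carriers through which glucose enters B cells. Slc2a1 lies at chr4:119108711-119137983 of GRCm38, the build of all coordinates given here. Its level was 183 and 165 RPM in the controls, 142 and 64.1 in Max_KO, 84.8 and 59.6 in the pair titled double_KO and 46.2 and 58.5 in the pair titled Myc_KO. All 6 knock-out libraries were below both controls, and the 2 Max_KO libraries lay far apart. Slc2a3 was at 82.2 and 105, 64.4 and 42.6, 43.9 and 41.9, and 27.7 and 32.2 RPM in the same order, again without overlap with the controls. Slc2a1 fell in Myc_KO (log2 change -1.47 ± 0.366 (SE), limma adjusted p = 0.0138) and double_KO (-1.56 ± 0.366, 0.0109) by description, and in Max_KO it was at -0.87 (95% interval -1.71 to -0.03, limma adjusted p = 0.095). Its call in Myc_KO was lost without control 1, control 2 or Myc_KO 2 (adjusted p = 0.0803, 0.0562 and 0.0783) and its call in double_KO without control 1 (0.0675). By title the changes were -1.74 in Myc_KO (limma adjusted p = 0.00353), -1.29 in double_KO (0.0162) and -0.87 in Max_KO (0.0686), the call in double_KO being lost without control 1, control 2 or double_KO 1 (0.0667 to 0.0975). Slc2a3 fell in all 3 groups by description, with log2 changes of -1.41 for Myc_KO, -0.83 for Max_KO and -1.34 for double_KO (limma adjusted p = 0.00453, 0.0414 and 0.00563), and the call in Max_KO was lost without control 1, control 2 or Max_KO 2 (0.0824, 0.206 and 0.231). Per kilobase of transcript, Slc2a1 made up 73% and 65.6% of the 2 carriers in the controls, against 63.4% to 72.7% in the 6 others. Slc2a6, another gene of this family and not among the members, is left out of this share. Its level was 269 and 277 RPM in the controls, against 206 to 239 in the knock-out libraries. At least 1 comparison with the control called Slc2a6 under each grouping.

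**Figure D3:**
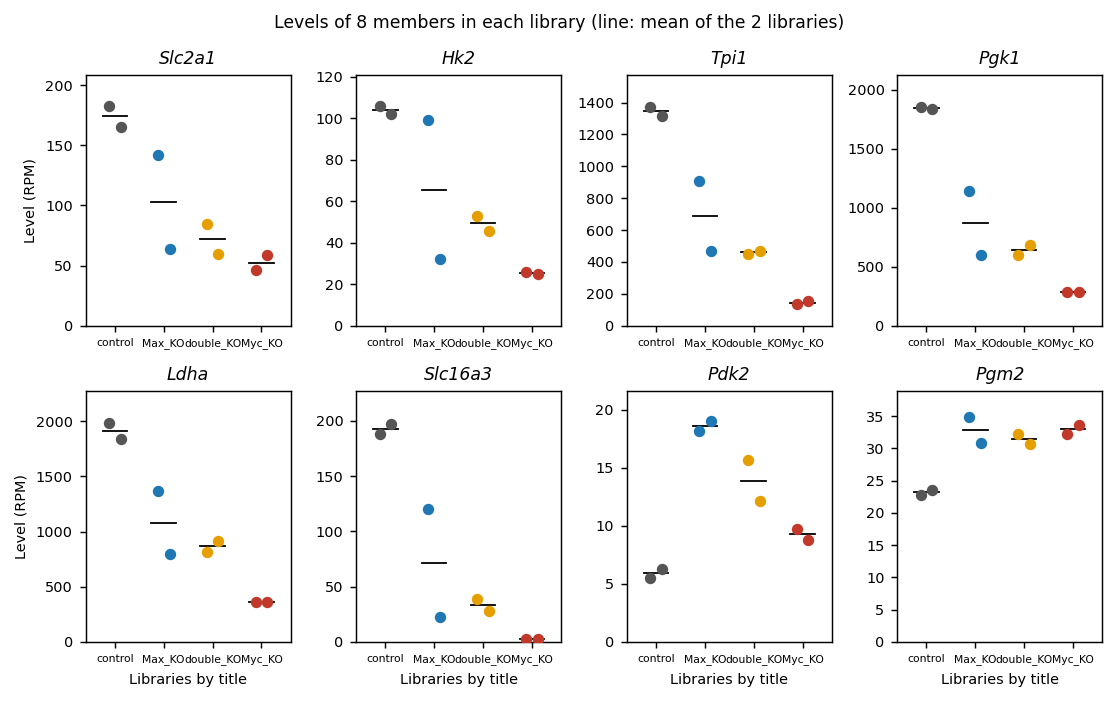
Level in RPM (vertical axes, from 0) of 8 members in each library, grouped by title on the horizontal axis; 1 point is 1 library and the line is the mean of the 2. Tpi1, Pgk1, Ldha and Slc16a3 are lowest in the pair titled Myc_KO, with Ldha at 365 and 362 RPM there against 1988 and 1843 in the controls, whereas Pdk2 is highest in Max_KO and Pgm2 lies above the controls at similar levels in the 3 knock-out groups.

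Hexokinases phosphorylate glucose and so trap it in the cell. Hk1, the housekeeping form, was at 170 and 178 RPM in the controls, 170 and 147 in Max_KO, 118 and 125 in the pair titled double_KO and 124 and 107 in the pair titled Myc_KO. Hk2, the inducible form, was at 106 and 102, 99.1 and 32.1, 52.9 and 45.8, and 25.7 and 24.7 RPM in that order. The 2 Max_KO libraries thus stood on either side of the pair titled double_KO for Hk2, one near the controls and one near the pair titled Myc_KO. Hk1 fell in Myc_KO and double_KO by description, with log2 changes of -0.52 and -0.59 (limma adjusted p = 0.00671 and 0.00391), the former lost without control 2 (0.0502), and was at -0.13 ± 0.109 in Max_KO (0.359). For Hk2 the change was -1.62 ± 0.532 in double_KO (limma adjusted p = 0.0389), lost without control 1, control 2 or double_KO 2 (0.143, 0.123 and 0.195), -1.49 ± 0.532 in Myc_KO (0.0536) and -0.88 ± 0.532 in Max_KO (0.221). By title Hk2 fell in Myc_KO (-2.04 ± 0.413, limma adjusted p = 0.0048), a call that held without any single library, and was at -1.08 in double_KO (0.0711). As a share of Hk1 and Hk2 per kilobase, Hk2 made up 30.3% and 28.6% in the controls and 28.9% and 13.2% in Max_KO. It was at 23.8% and 20.4% in the pair titled double_KO and at 12.7% and 14% in the pair titled Myc_KO.

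Of the 10 tested members of the upper part of the pathway, from hexokinase to aldolase, by description 7, 3 and 8 fell in the Myc_KO, Max_KO and double_KO groups, and 9, 5 and 7 by title. Of all genes, 18.7%, 16.7% and 19% were called lower by description and 21.4%, 17.4% and 16.8% by title. Gpi1, which turns glucose 6-phosphate into fructose 6-phosphate, was at 1430 and 1386 RPM in the controls, 780 and 575 in Max_KO, 560 and 608 in the pair titled double_KO and 370 and 391 in the pair titled Myc_KO. Gpi1 fell in all 3 groups by title, with log2 changes of -1.89 for Myc_KO, -1.07 for Max_KO and -1.27 for double_KO (limma adjusted p = 5.64e-05, 0.000712 and 0.000358). These calls held without any single library. It fell in all 3 groups by description too, from 1408 ± 31.2 (SD, n = 2) to 465 ± 134 with Myc_KO, 677 ± 145 with Max_KO and 500 ± 153 with double_KO (limma adjusted p = 0.00188, 0.0125 and 0.00253). The call of Gpi1 in Max_KO was lost without control 1, control 2 or Max_KO 2 (0.0728, 0.0588 and 0.0864).

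Phosphofructokinase commits the sugar to glycolysis, and its 3 subunits did not move alike. Pfkl, the liver type, was at 348 and 336 RPM in the controls, 279 and 146 in Max_KO, 175 and 156 in the pair titled double_KO and 74.9 and 65.7 in the pair titled Myc_KO. Pfkp, the platelet type, was at 241 and 244, 212 and 136, 161 and 141, and 111 and 90.1. Pfkm, the muscle type, was at 28.3 and 29.7, 11.4 and 11.6, 9.05 and 12.1, and 8.68 and 7.38, so that its Max_KO libraries were close together and at 39.8% of the control mean. Pfkm fell in Myc_KO (-1.71 ± 0.224, limma adjusted p = 0.000947), Max_KO (-1.33 ± 0.224, 0.00302) and double_KO (-1.61 ± 0.224, 0.00118) by description, and these calls held without any single library. Pfkl fell in Myc_KO (-1.58 ± 0.494, limma adjusted p = 0.034) and double_KO (-1.76 ± 0.494, 0.022), calls that were lost without control 1, control 2 or the second library of the knock-out (0.115 to 0.184 and 0.0842 to 0.13). By title the change of Pfkl was -2.28 ± 0.249 in Myc_KO (limma adjusted p = 0.000259). Pfkp fell in Myc_KO and double_KO by description (log2 changes -0.86 and -1.11, limma adjusted p = 0.0347 and 0.0129), calls lost without the same libraries as for Pfkl (0.124 to 0.179 and 0.0625 to 0.0787). Pfkp by title fell in Myc_KO (log2 change -1.28, limma adjusted p = 0.00118), a call that held without any single library. In double_KO by title it was at -0.69 (0.0232), lost without control 1, control 2, Myc_KO 1 or double_KO 1. Per kilobase, Pfkl made up 57.8% and 56.6% of the 3 subunits in the controls and 40.3% and 42% in the pair titled Myc_KO, where Pfkp made up 53.7% and 51.9%. In the other 4 knock-out libraries Pfkl was at 51.4% to 57.5%. Exons of Pfkm overlap those of Senp1 on the opposite strand, and those of Pfkp overlap Pitrm1. Over the libraries Senp1 had a mean of 84.56 RPM against 14.8 for Pfkm, and Pitrm1 had 95.79 against 167 for Pfkp. Since the strand setting of the counting is not given in the sources used here, reads of such pairs cannot be told apart.

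Pfkfb3 and Pfkfb4 make fructose 2,6-bisphosphate, the activator of phosphofructokinase. Pfkfb3 was at 48.9 and 56.7 RPM in the controls, 58.9 and 32 in Max_KO, 42.9 and 32 in the pair titled double_KO and 27.8 and 27.3 in the pair titled Myc_KO. By description no comparison called it (log2 change -0.83 ± 0.293 in double_KO, limma adjusted p = 0.0501), and by title it fell in Myc_KO (-0.93 ± 0.263, 0.0204), a call lost without control 1, control 2, Myc_KO 2 or double_KO 2 (0.0622 to 0.114). Pfkfb4 was at 12.1 to 16.5 RPM in the 8 libraries, and its intervals by description were -0.53 to 0.33 for Myc_KO, -0.63 to 0.23 for Max_KO and -0.50 to 0.36 for double_KO.

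Aldolase cleaves the 6-carbon sugar. Aldoa, the main form here, was at 1947 and 1916 RPM in the controls, 1068 and 704 in Max_KO, 808 and 820 in the pair titled double_KO and 585 and 525 in the pair titled Myc_KO. Aldoc, a form best known from brain, was at 146 and 166, 108 and 64.6, 46.3 and 47.9, and 18.6 and 18.1. In Aldoc the groups by title did not overlap. Aldoa fell by description, with log2 changes of -1.49 for Myc_KO, -1.16 for Max_KO and -1.56 for double_KO (limma adjusted p = 0.00307, 0.01 and 0.00255), with the Max_KO call lost without control 1, control 2 or Max_KO 2 (0.0613, 0.0522 and 0.0699). The Max_KO call of Aldoa by title (limma adjusted p = 0.00143) held without any single library. Aldoc was 5.29-fold lower in double_KO by description (limma adjusted p = 0.00756). By title it was 8.48-fold lower in Myc_KO (log2 change -3.08 ± 0.207, limma adjusted p = 5.53e-05), 3.31-fold lower in double_KO (0.000604) and 1.86-fold lower in Max_KO (0.0103), the last lost without control 2 (0.0742). Per kilobase, Aldoc was 3.92% and 4.49% of the 2 forms in the controls, 5.21% and 4.74% in Max_KO and 1.7% and 1.84% in the pair titled Myc_KO.

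All 7 tested members of the lower part, from triose phosphate isomerase to pyruvate kinase, fell in Myc_KO and in double_KO under both groupings. Of all genes, 18.7% and 19% were called lower in these groups by description and 21.4% and 16.8% by title. In Max_KO 2 of the 7 members fell by description (Gapdh and Eno2, 16.7% of all genes) and 7 by title (17.4%). The libraries and log2 changes were the same there, with another estimate of the spread. Per kilobase of transcript, Gapdh was the most abundant member in the controls (4262 ± 321 RPM per kilobase), followed by Aldoa (1278 ± 14.4), Pkm (1176 ± 39.7), Ldha (1085 ± 58.2), Pgk1 (1013 ± 6.37) and Tpi1 (836 ± 23.5). The difference between Pkm and Ldha was smaller than the sum of their SDs. Gapdh, Pgk1, Ldha, Pgam1, Eno1, Tpi1 and Aldoa have pseudogene copies close in sequence, among which the authors' estimate divides the reads, so that their absolute levels are less certain than those of single-copy genes.

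Tpi1 (chr6:124810586-124814296), which interconverts the 2 triose phosphates, was at 1371 and 1317 RPM in the controls, 908 and 468 in Max_KO, 449 and 471 in the pair titled double_KO and 138 and 152 in the pair titled Myc_KO. The pair titled Myc_KO was far below the 4 other knock-out libraries, at 10.8% of the control mean, against 34.2% in the pair titled double_KO and 51.2% in Max_KO. By description Tpi1 fell in Myc_KO and double_KO (log2 changes -2.43 and -2.33, SE 0.634, limma adjusted p = 0.0168 and 0.0195) and was at -1.04 in Max_KO (0.223). Both calls were lost without control 1, control 2 or the second library of the knock-out (0.0713 to 0.0898 and 0.0775 to 0.114). By title the SE was 0.249 and the changes were -3.22 in Myc_KO (limma adjusted p = 6.9e-05), -1.55 in double_KO (0.00218) and -1.04 in Max_KO (0.0118), the last lost without control 1 or control 2 (0.0731 and 0.0585).

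Gapdh, which makes the NADH of the pathway, was at 6373 and 5729 RPM in the controls, 3109 and 2310 in Max_KO, 2311 and 2475 in the pair titled double_KO and 1564 and 1463 in the pair titled Myc_KO. Pgk1, which makes the first ATP, was at 1858 and 1841, 1146 and 601, 601 and 683, and 289 and 289. Gapdh, often used as a reference gene, was thus not level across these groups. By description Gapdh fell, with log2 changes of -1.67 for Myc_KO, -1.17 for Max_KO and -1.67 for double_KO (limma adjusted p = 0.00257, 0.0127 and 0.00261), and the Max_KO call was lost without control 1, control 2 or Max_KO 2 (0.0809, 0.0514 and 0.089). Pgk1 fell 4.44-fold in Myc_KO (limma adjusted p = 0.00822), a call lost without control 1 (0.0506), and 4.16-fold in double_KO (0.00971), lost without control 1, control 2 or double_KO 2 (0.0557, 0.0501 and 0.0556). By title Pgk1 was 6.4-fold lower in Myc_KO (limma adjusted p = 0.00012), 2.89-fold lower in double_KO (0.0021) and 2.23-fold lower in Max_KO (0.00698), calls that held without any single library. So did the calls of Gapdh by title in Myc_KO, double_KO and Max_KO (limma adjusted p = 5.69e-05, 0.000375 and 0.000623).

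Pgam1 and the enolases lead from 3-phosphoglycerate to phosphoenolpyruvate. Pgam1 was at 905 and 866 RPM in the controls, 626 and 341 in Max_KO, 387 and 372 in the pair titled double_KO and 231 and 218 in the pair titled Myc_KO. Eno1, the widespread enolase, was at 941 and 814, 562 and 304, 340 and 342, and 168 and 163. Eno2, the neuronal enolase, was at 25.1 and 27.3, 14.9 and 15.9, 15 and 13.1, and 16.4 and 13.3, so that its knock-out libraries lay at similar levels. Pgam1 fell in Myc_KO and double_KO by description (log2 changes -1.57 and -1.64, limma adjusted p = 0.00903 and 0.00741), the former lost without control 1 or Myc_KO 2 (0.0564 and 0.0537). Eno2 fell by description, with log2 changes of -0.74 for Myc_KO, -0.77 for Max_KO and -0.99 for double_KO (limma adjusted p = 0.00335, 0.00331 and 0.00103), calls that held without any single library. Eno1 fell in Myc_KO and double_KO (log2 changes -1.87 and -1.89, limma adjusted p = 0.0105 and 0.0099), calls lost without control 1 (0.0674 and 0.0646) or the second library of the knock-out (0.0605 and 0.0595). Its log2 change was -2.40 in Myc_KO by title (limma adjusted p = 0.000159). Per kilobase, Eno2 made up 1.9% and 2.38% of the 2 enolases in the controls and 6.6% and 5.6% in the pair titled Myc_KO.

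Pyruvate kinase makes the last ATP. Pkm, whose values do not separate the M1 and M2 splice forms, was at 2928 and 2792 RPM in the controls, 2289 and 1426 in Max_KO, 1397 and 1522 in the pair titled double_KO and 702 and 745 in the pair titled Myc_KO. By description it fell in Myc_KO and double_KO (log2 changes -1.53 and -1.43, limma adjusted p = 0.0175 and 0.0225), calls lost without control 1, control 2 or the second library of the knock-out (0.0713 to 0.0987 and 0.0829 to 0.131). By title the log2 changes were -1.98 in Myc_KO (limma adjusted p = 0.000142), -0.97 in double_KO (0.00493) and -0.66 in Max_KO (0.0239), the last lost without control 1, control 2 or Max_KO 2 (0.0689 to 0.12).

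Lactate dehydrogenase reduces pyruvate to lactate. Ldha (chr7:46841475-46855627), which encodes its muscle-type subunit, was at 1988 and 1843 RPM in the controls, 1364 and 793 in Max_KO, 818 and 912 in the pair titled double_KO and 365 and 362 in the pair titled Myc_KO. The 2 libraries titled Myc_KO were nearly level with each other, at 19% of the control mean. By description Ldha fell 3.5-fold in Myc_KO and 3.33-fold in double_KO (limma adjusted p = 0.019 and 0.0217), calls lost without control 1, control 2 or the second library of the knock-out (0.0734 to 0.107 and 0.0792 to 0.123). By title it fell 5.27-fold in Myc_KO (limma adjusted p = 0.000103), 2.22-fold in double_KO (0.00387) and 1.84-fold in Max_KO (0.012), the last lost without control 1 or control 2 (0.0793 and 0.0519). Ldhb rested on 4 to 12 estimated reads a library and was at most 0.145% of the 2 subunits per kilobase.

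Lactate leaves through Slc16a3 (MCT4), the exporter of glycolytic cells, and Slc16a1 (MCT1), which carries lactate in either direction. The gene of the former lies at chr11:120948480-120960868. Slc16a3 was at 188 and 197 RPM in the controls, 120 and 22.1 in Max_KO, 38.6 and 27.5 in the pair titled double_KO and 2.87 and 2.83 in the pair titled Myc_KO. In estimated reads these were 3021 and 3253, 2155 and 396, 690 and 501, and 44 and 53. As a ratio of the highest to the lowest library its range was the widest of the 34 tested members, and the 2 Max_KO libraries differed more than 5-fold. Slc16a1 was at 44.2 and 45.8, 30.1 and 23.6, 42.6 and 62.9, and 39.7 and 42.7 RPM, lower than the controls in Max_KO and on both sides of them in the pair titled double_KO.

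By description Slc16a3 fell 18.2-fold in Myc_KO and 21.7-fold in double_KO (log2 change -4.19 and -4.44, SE 1.37, limma adjusted p = 0.0398 and 0.0311), and in Max_KO it was at -1.90 (95% interval -5.04 to 1.24). Both calls were lost without control 1, control 2 or the second library of the knock-out (0.133 to 0.214 and 0.112 to 0.179). By title it was 66.8-fold lower in Myc_KO (-6.06 ± 0.621, limma adjusted p = 0.000197), a call that held without any single library. It was 5.91-fold lower in double_KO by title (0.0128), lost without control 1, control 2 or double_KO 1 (0.0657 to 0.0711), and 3.74-fold lower in Max_KO (0.04), lost without any 1 of the 6 libraries other than Max_KO (0.0506 to 0.148). Slc16a1 fell in Max_KO (-0.75 ± 0.189, limma adjusted p = 0.0156), a call lost without control 1, control 2 or Max_KO 2 (0.0738, 0.0811 and 0.0968), and was at -0.13 in Myc_KO and 0.20 in double_KO (0.61 and 0.414). Double_KO minus Max_KO for Slc16a1 was 0.96 by title (95% interval 0.52 to 1.39, limma adjusted p = 0.227) and was 0.96 by description too (0.145). It was not called in either fit, and by description it passed with the replicate number as a block (0.0436). Per kilobase, Slc16a3 was 81.3% and 81.5% of the 2 carriers in the controls, 80.2% and 48.9% in Max_KO, 48% and 30.8% in the pair titled double_KO and 6.88% and 6.34% in the pair titled Myc_KO. The order of the 2 carriers was thus reversed in the libraries where Slc16a3 was lowest.

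The promoters of these 2 lactate genes are shown because Slc16a3 and Ldha stood at 1.48% and 19% of control in the pair titled Myc_KO. They are the bases before the RefSeq start, without any that GENCODE annotates as exon, at chr7:46845554-46845803 (Ldha, plus strand, 250 bases) and chr11:120948817-120949052 (Slc16a3, plus strand, 236 bases) of GRCm38. Both lie inside the span of their gene given above, where other annotated transcripts start further upstream. Capitals mark CACGTG and ACGTG on either strand. Ldha holds 2 CACGTG and a further ACGTG on the other strand (read as CACGT), and Slc16a3 holds 1 ACGTG and no CACGTG.
Ldha: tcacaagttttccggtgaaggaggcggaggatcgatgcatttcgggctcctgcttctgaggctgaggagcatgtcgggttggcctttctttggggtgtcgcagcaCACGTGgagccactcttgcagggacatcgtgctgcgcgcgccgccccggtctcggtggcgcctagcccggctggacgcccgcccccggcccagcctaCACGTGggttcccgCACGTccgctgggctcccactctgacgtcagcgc
Slc16a3: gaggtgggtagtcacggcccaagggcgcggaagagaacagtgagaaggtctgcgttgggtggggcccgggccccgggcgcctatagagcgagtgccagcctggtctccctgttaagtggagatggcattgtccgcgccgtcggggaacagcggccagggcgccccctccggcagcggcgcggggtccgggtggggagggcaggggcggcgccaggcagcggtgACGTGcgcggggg

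**Figure D4:**
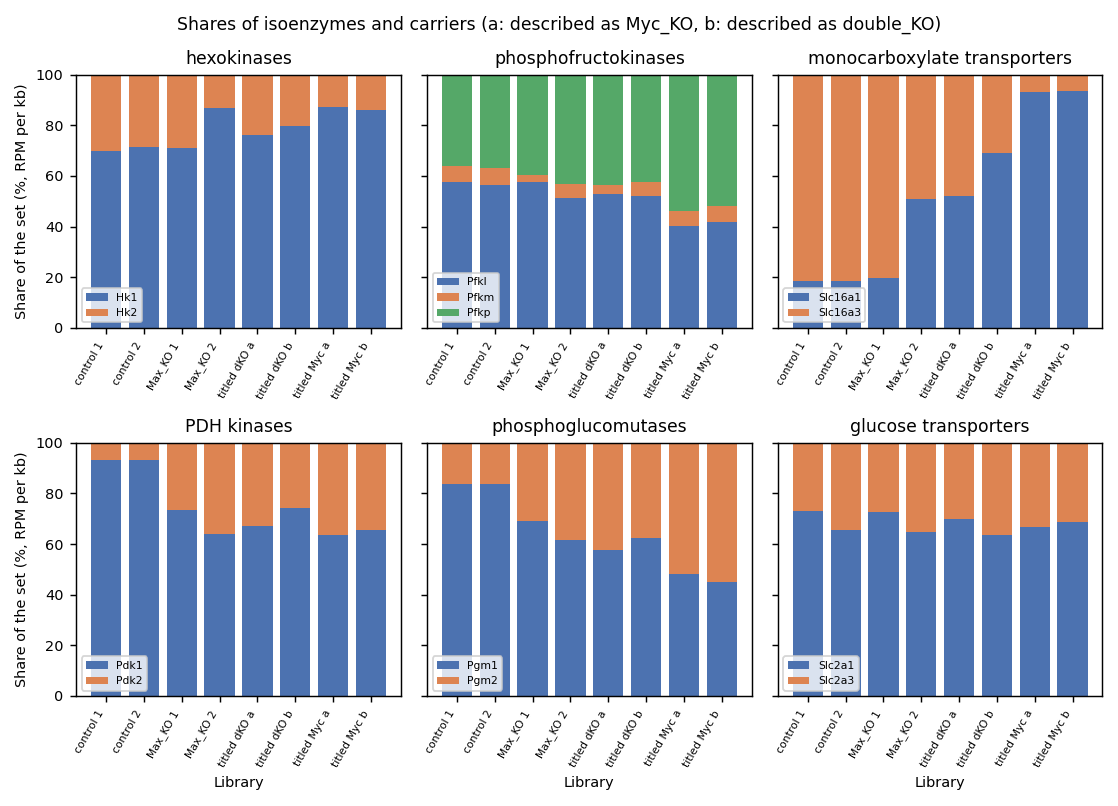
Share of each isoenzyme or carrier within its set (vertical axes, percent of RPM per kilobase) in each library (horizontal axes), where a and b are the libraries described as Myc_KO and double_KO. Slc16a3 goes from 81.3% and 81.5% of the monocarboxylate carriers in the controls to 6.88% and 6.34% in the pair titled Myc_KO, and Pdk2 from 6.62% and 6.9% of the 2 kinases to 25.8% or more in the knock-out libraries.

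Pyruvate that is not reduced enters mitochondria through the carrier made of Mpc1 and Mpc2 and is oxidised by pyruvate dehydrogenase, which Pdk1 and Pdk2 switch off by phosphorylation. The 2 kinases went in opposite directions. Pdk1 was at 178 and 196 RPM in the controls, 115 and 77.8 in Max_KO, 73.9 and 80.1 in the pair titled double_KO and 39 and 38.6 in the pair titled Myc_KO. Pdk2 (chr11:95026258-95041354) was at 5.48 and 6.31, 18.2 and 19, 15.7 and 12.1, and 9.73 and 8.82. All 6 knock-out libraries were above both controls for Pdk2, Max_KO was highest, and the groups by title did not overlap.

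By description Pdk1 fell 3.48-fold in Myc_KO and 3.37-fold in double_KO (limma adjusted p = 0.00723 and 0.00801), calls that held without any single library, and its log2 change was -0.98 in Max_KO (0.0747). By title the log2 changes were -2.27, -1.28 and -0.98 in Myc_KO, double_KO and Max_KO (limma adjusted p = 5.8e-05, 0.000813 and 0.00259). Pdk2 rose 3.15-fold in Max_KO (log2 change 1.66 ± 0.255, limma adjusted p = 0.00213), which held without any single library. It rose 2.1-fold in Myc_KO (0.0118), lost without control 1 or Myc_KO 1 (0.0779 and 0.0568), and 1.75-fold in double_KO (0.0343), lost without control 1, control 2 or double_KO 1 (0.163, 0.0824 and 0.173). By title the rises were 1.57-fold in Myc_KO (limma adjusted p = 0.0213), lost without control 1 or Myc_KO 2 (0.123 and 0.0899), and 2.33-fold in double_KO (0.00171). Pdk2 went from 6.62% and 6.9% of the 2 kinases per kilobase in the controls to a range of 25.8% to 36.6% over the knock-out libraries. Pdk3, another kinase of pyruvate dehydrogenase and not among the members, is left out of this share. Its level was 56.5 and 54.3 RPM in the controls, against 47.4 to 62.3 in the knock-out libraries. No comparison with the control called Pdk3 under either grouping.

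Pdha1, the catalytic subunit of pyruvate dehydrogenase, was at 81.4 to 102 RPM in the 8 libraries and its log2 changes by description were 0.01, 0.05 and 0.09 in Myc_KO, Max_KO and double_KO, with 95% intervals from -0.26 to 0.37. Mpc1 was at 51.9 and 48 RPM in the controls, against 34.4 to 39.9 in the knock-out libraries. It fell by description, with log2 changes of -0.37 for Myc_KO, -0.43 for Max_KO and -0.40 for double_KO (limma adjusted p = 0.0288, 0.0181 and 0.0217), calls lost without either control (0.0579 to 0.168), without Max_KO 1 (0.0789) or without either library of Myc_KO or double_KO (0.0573 to 0.103). Mpc2 was at 30.8 and 28.9 RPM in the controls, against 23.9 to 29.5 in the knock-out libraries, with log2 changes of -0.17, -0.29 and -0.11.

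The pentose phosphate branch makes NADPH and ribose. Its entry enzyme G6pdx was at 54.5 and 61.2 RPM in the controls, 60.6 and 56 in Max_KO, 59.5 and 55.7 in the pair titled double_KO and 54.1 and 50.7 in the pair titled Myc_KO. Pgd, the second oxidative enzyme of the branch, was at 179 and 166, 130 and 101, 126 and 119, and 126 and 118. Tkt, the transketolase of the non-oxidative part, was at 502 and 484, 325 and 280, 326 and 316, and 262 and 254, and Taldo1, its partner transaldolase, at 174 and 150, 164 and 154, 165 and 146, and 156 and 149. The knock-out libraries were thus below the controls for Pgd and Tkt and overlapped them for G6pdx and Taldo1.

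Tkt fell in the 3 groups by description (log2 changes -0.75, -0.71 and -0.80 for Myc_KO, Max_KO and double_KO, SE 0.144, limma adjusted p = 0.0045, 0.00651 and 0.00351), and so did Pgd (log2 changes -0.45, -0.59 and -0.54, SE 0.119, limma adjusted p = 0.0175, 0.00636 and 0.00848). The Max_KO calls of Tkt and Pgd were lost without control 1 (0.0506 and 0.0563), as was that of Pgd in double_KO (0.0673), and the call of Pgd in Myc_KO was lost without either control or either Myc_KO library (0.0527 to 0.113). The Max_KO call of Tkt by title (limma adjusted p = 0.000664) held without any single library, while that of Pgd by title was lost without control 1. For G6pdx the intervals by description were -0.28 to 0.23 for Myc_KO, -0.24 to 0.26 for Max_KO and -0.37 to 0.13 for double_KO, and for Taldo1 they ran from -0.35 to 0.21 over the 3 groups. Exons of G6pdx overlap those of Ikbkg on the opposite strand, whose mean level over the libraries was 50.59 RPM against 56.5 for G6pdx, and reads of the pair cannot be told apart.

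Phosphoglucomutase moves glucose between glycolysis and glycogen. The gene named Pgm1 here (ENSMUSG00000025791, chr4:99929414-99987294) was at 117 and 121 RPM in the controls, 77.5 and 49.9 in Max_KO, 43.8 and 50.9 in the pair titled double_KO and 30.1 and 27.6 in the pair titled Myc_KO. Pgm2 (ENSMUSG00000029171, chr5:64092950-64128351) was at 22.8 and 23.6, 34.8 and 30.9, 32.3 and 30.7, and 32.3 and 33.7. Older annotations use these 2 symbols the other way round. The 2 genes went in opposite directions, Pgm1 lower and Pgm2 higher than both controls in all 6 knock-out libraries. Pgm1 fell by description, with log2 changes of -1.72 for Myc_KO, -0.94 for Max_KO and -1.67 for double_KO (limma adjusted p = 0.00365, 0.0448 and 0.00416), the Max_KO call being lost without control 1, control 2 or Max_KO 2 (0.147, 0.154 and 0.24). Pgm2 rose by 0.48, 0.50 and 0.47 (SE 0.115, limma adjusted p = 0.012, 0.0107 and 0.0126), calls lost without control 1 or control 2 and, for Myc_KO and double_KO, without their second library (0.0502 to 0.0816). The Max_KO call of Pgm1 by title (limma adjusted p = 0.00556) held without any single library. Per kilobase, Pgm1 was 83.7% of the 2 genes in each control and 48.2% and 45% in the pair titled Myc_KO. Gys1, which builds glycogen, had a mean of 34.6 RPM over the libraries, against 88.85 for Ruvbl2, with which it shares exon bases. Gys1 was at 40.6 and 48.8 RPM in the controls, 45.9 and 30.7 in Max_KO, 31 and 28.1 in the pair titled double_KO and 27.3 and 23.9 in the pair titled Myc_KO. It fell in Myc_KO and double_KO by description (log2 changes -0.62 and -0.78, limma adjusted p = 0.0381 and 0.015), the former lost without either control or either Myc_KO library (0.0606 to 0.195) and the latter without control 2 or double_KO 2 (0.0981 and 0.0848), and its exons overlap those of Ruvbl2 on the opposite strand.

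**Figure D5:**
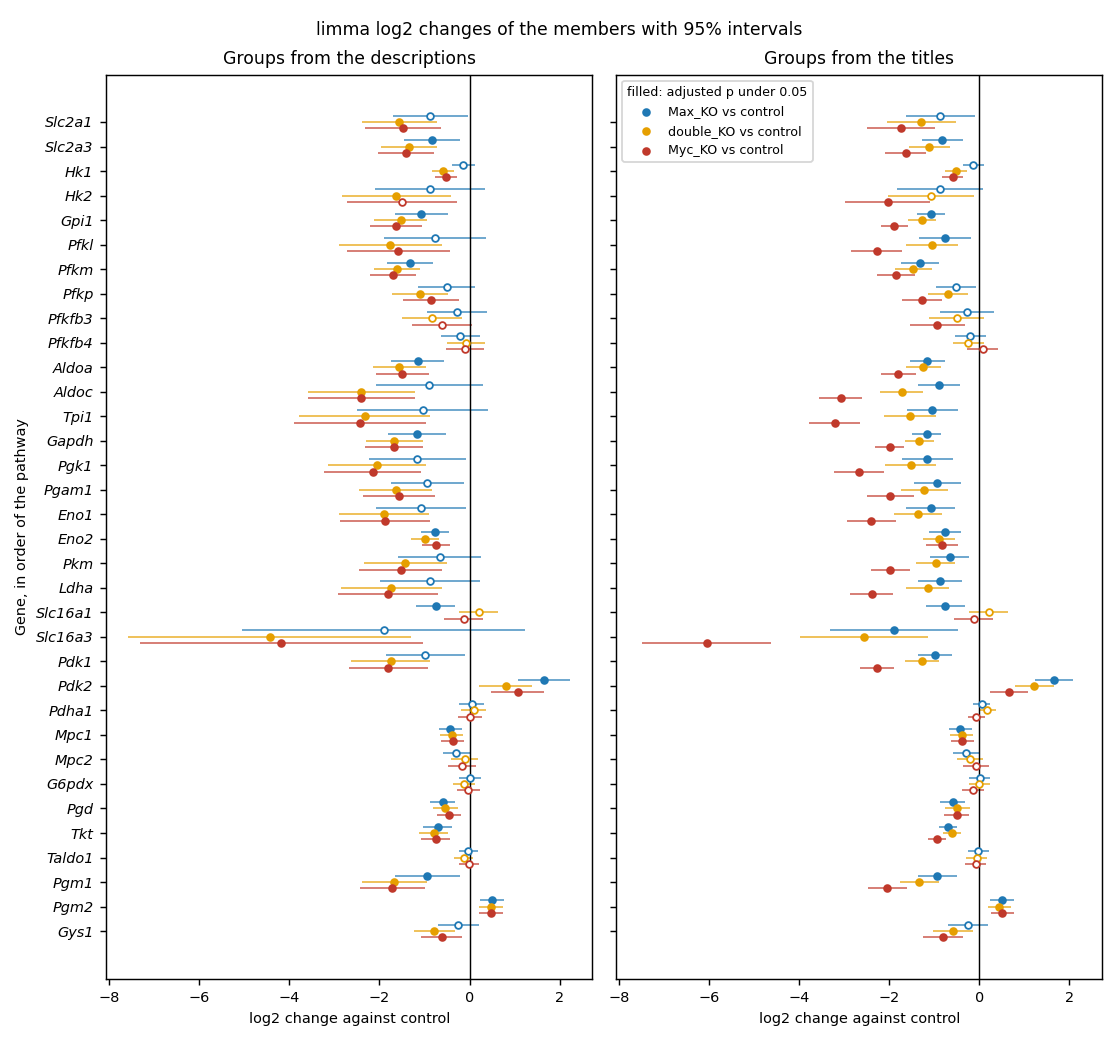
limma log2 change against control (horizontal axes) of the 34 tested members (vertical axis, in pathway order) with 95% intervals, for groups from the descriptions (left) and from the titles (right); filled points passed an adjusted p of 0.05. For Tpi1, Pgk1 and Ldha the intervals are wider on the left, and on the right the Myc_KO changes of -3.22, -2.68 and -2.40 lie below those of double_KO and Max_KO.

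The knock-out groups were also compared with each other. The controls enter these comparisons through the estimate of the spread, which the 4 groups share. For fits with a library left out, the share of all genes called was not computed. Their counts of members therefore have no background to be set against. By description limma called 0 of the 34 members between Max_KO and Myc_KO (0.104% of all genes), 0 between double_KO and Myc_KO (0% of all genes) and 0 between double_KO and Max_KO (0.209%). At an unadjusted p under 0.05 the members were 4, 0 and 6, against 11.4%, 10.6% and 9.2% of all genes, and no other tool was run. By title 14 members differed between Max_KO and Myc_KO (4.13% of all genes), each of them higher in Max_KO, with a median over the 34 members of 0.79. They were Gpi1, Pfkl, Aldoc, Tpi1, Gapdh, Pgk1, Pgam1, Eno1, Pkm, Ldha, Slc16a3, Pdk1, Pdk2 and Pgm1. Of these, Aldoc (2.19 ± 0.207, limma adjusted p = 0.00273), Tpi1 (2.17 ± 0.249, 0.00565) and Pdk1 (1.29 ± 0.165, 0.00821) held without any single library. For the other 11 the adjusted p rose to between 0.0503 and 0.162 without at least 1 library. The number of calls was 3 without Myc_KO 2, 6 without control 1 or control 2, 7 without double_KO 2 and 21 without Max_KO 2, and with only these 2 groups in the fit it was 1.

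Between double_KO and Myc_KO by title, 2 members differed (0.458% of all genes), Aldoc (1.36 ± 0.207, limma adjusted p = 0.0405) and Tpi1 (1.67 ± 0.249, 0.0387), both higher in double_KO. Each was lost without any 1 of the 6 libraries other than Max_KO (adjusted p = 0.108 to 0.181 and 0.0915 to 0.175), and the number of calls was 15 without either Max_KO library and 0 without any other. In fits with a library left out, the share of all genes called was not computed. With no library left out, the median over the 34 members was 0.54. Next to the threshold were Ldha (1.25, limma adjusted p = 0.056), Pdk1 (0.99, 0.056), Slc16a3 (3.50, 0.0659) and Pkm (1.01, 0.0748). Between double_KO and Max_KO by title limma called 0 members (0.0402% of all genes), with 4 at an unadjusted p under 0.05, where 6.04% of all genes were. The intervals of this difference were -0.93 to 0.19 for Pgk1, -0.75 to 0.22 for Ldha, -0.49 to 0.16 for Gapdh and -2.09 to 0.77 for Slc16a3, and the last is wide. Without Max_KO 2 the number of calls was 6.

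The order of single libraries was counted as a description. Both libraries titled Myc_KO were below both titled double_KO in 25 of the 34 members (22.6% of all genes) and above them in 2 (18.8%). With the pairs taken from the descriptions, double_KO was below Myc_KO in 3 members (20.2% of all genes) and above it in 1 (21%). The 2 libraries titled Myc_KO were the lowest of all 8 in 24 members (10.7% of all genes). All 6 knock-out libraries were below both controls in 23 members (26.4% of all genes) and above both in 2 (29.2%), Pdk2 and Pgm2. Max_KO 1 was the highest of the 6 knock-out libraries in 24 members (20.6% of all genes), and the 2 Max_KO libraries differed for many of them, as with Hk2 at 99.1 and 32.1 RPM and Slc16a3 at 120 and 22.1.

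Beyond the 35 members, a list of 74 other genes of glycolysis, its branches and its regulators was followed, of which 64 were in the table and 59 were tested. By description 16 were lower and 12 higher in Myc_KO, 13 and 8 in Max_KO, and 12 and 12 in double_KO, with medians of -0.01, 0.08 and 0.07. As shares of the 59, 27.1%, 22% and 20.3% were lower, against 18.7%, 16.7% and 19% of all genes, and 20.3%, 13.6% and 20.3% were higher, against 22.3%, 21.5% and 23.4%. By title the counts were 13 and 13, 12 and 9, and 13 and 9. These were 22%, 20.3% and 22% lower, against 21.4%, 17.4% and 16.8% of all genes. The higher ones were 22%, 15.3% and 15.3%, against 24%, 22.4% and 21.9%. With any 1 library left out, the lower counts by description ranged from 8 to 16, 5 to 13 and 7 to 14 and the higher counts from 5 to 13, 3 to 8 and 5 to 13.

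Bsg, the chaperone (basigin, CD147) that carries Slc16a1 and Slc16a3 to the cell surface, was at 356 and 354 RPM in the controls, 209 and 148 in Max_KO, 162 and 179 in the pair titled double_KO and 158 and 140 in the pair titled Myc_KO. It fell by description, with log2 changes of -1.15, -1.01 and -1.17 for Myc_KO, Max_KO and double_KO (limma adjusted p = 0.00153, 0.00292 and 0.00147). Emb, the related chaperone embigin, fell too (log2 changes -1.46, -1.79 and -1.14, limma adjusted p = 0.000896, 0.000555 and 0.00249). Galk1, which phosphorylates galactose, fell as well, from 156 and 147 RPM to between 25.1 and 70.2 (limma adjusted p = 0.00174, 0.0116 and 0.00391). Pygl, a glycogen phosphorylase, was at 7.1 and 6.67 RPM in the controls, against 0.503 to 2.11 in the knock-out libraries, and fell in all 3 groups (log2 changes -3.67, -2.26 and -3.48, limma adjusted p = 0.000726, 0.00615 and 0.000905). Pygb, a more abundant glycogen phosphorylase, was at 131 and 142 RPM in the controls, against 113 to 133 in the knock-out libraries. No comparison with the control called it under either grouping.

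Hif1a, the oxygen-regulated subunit of HIF-1, was at 59.5 and 60.3 RPM in the controls, 131 and 123 in Max_KO, 129 and 116 in the pair titled double_KO and 120 and 113 in the pair titled Myc_KO. It rose by 1.05, 1.08 and 0.93 in Myc_KO, Max_KO and double_KO by description (SE 0.0852, limma adjusted p = 0.00029, 0.000354 and 0.000356), while its protein, which is set mainly by oxygen, was not measured. Arnt, its partner, was at 48.8 and 50.6 RPM in the controls, against 69.8 to 88.3 in the knock-out libraries, and rose by 0.68, 0.66 and 0.77 (limma adjusted p = 0.00313, 0.00413 and 0.0019). Pfkfb2, which like Pfkfb3 makes the activator of phosphofructokinase, rose from 5.79 and 6.19 RPM to between 9.14 and 15.1 (log2 changes 0.76, 1.10 and 1.27, limma adjusted p = 0.00915, 0.00218 and 0.00106). Gsk3b, which inhibits glycogen synthase, rose by 0.55, 0.50 and 0.73 (limma adjusted p = 0.00823, 0.0133 and 0.0024), and Ugp2, which makes UDP-glucose, by 0.51, 0.50 and 0.42 (0.00751, 0.00884 and 0.0163).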

How the data were processed

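The deposited table holds log2 values for 15681 genes in 8 libraries. These log2 values deposited by the authors behave as estimated reads plus 0.5, scaled to an effective library size, then logged; the tool is not given in the sources used here. CASAVA 1.8, cutadapt, RSEM 1.2.3 and the build GRCm38 are named, per the submitters' processing notes, with no parameters, annotation or strand setting. Taking a library's minimum to be 0 reads turned its other values into multiples of 0.01 read (largest departure 1.23e-08 read), and RPM is the value with the added 0.5 read taken off. Estimated reads came out fractional, so count models were not used. With such scaling a log2 change is relative to most genes of the library and says nothing of RNA per cell.

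The 12441 genes that reached 1 RPM in 2 or more libraries were tested with limma 3.58.1 in R 4.3.3, in 1 model of the 4 groups with a mean-variance trend (4 residual and 4.2 prior degrees of freedom by description). Tests were two-sided, with Benjamini-Hochberg adjustment over all tested genes and a threshold of 0.05; ± after a log2 change is the SE, and ± after a level is the SD over 2 libraries. The design foresaw log2(value + pseudocount), and since the values were already log2 they were used as they are. As a check of the code, the fit was run on simulated data with planted changes, independent noise and correct labels. That run does not bear on the disputed labels. Level per kilobase used the principal transcript of GENCODE vM21. Tables and figures used Python 3.11.15, pandas 2.3.3, numpy 2.4.6 and matplotlib 3.10.9.

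The members and lists were chosen with earlier results of these data known. All 35 members are named in pathway order. Other pathway genes were named if called, by lowest adjusted p, with at most 6 in each direction, of which several are not reported here. Alternatives were other filters, a pseudocount of 1 RPM, other scalings, a replicate block, groups from the titles, undisputed libraries, the number series, other eBayes settings, a threshold of 0.01 and each library left out. Fits of the title groups other than the first were added after seeing the data.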

Additional observations from a re-analysis of the deposited data

How the results depend on the processing

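Members called lower in Max_KO by description, 11, were 22 with the replicate block, 21 by title, 19 with the undisputed libraries, 19 with only the groups compared, 5 with the number series as a term and 4 at a threshold of 0.01. At 0.01 the members lower in Myc_KO and double_KO were 13 and 15, and those higher in Myc_KO, Max_KO and double_KO 0, 1 and 0. Members higher in double_KO were 1 with the undisputed libraries and 1 without the trend. With the number series as a term double_KO had 0 members lower and 0 higher, since the controls and the libraries described as double_KO do not share a series. Between knock-out groups, titles gave 14 calls for Max_KO against Myc_KO and 2 for double_KO against Myc_KO, the undisputed libraries 5 for the former, and the replicate block 1 (Slc16a1) for double_KO against Max_KO. Within the title groups, Max_KO against Myc_KO gave 1 call with only the groups compared, and double_KO against Myc_KO gave 10 with only the groups compared and 10 with the number series.

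Of the other pathway genes, those higher in Max_KO were 15 with the same total, 13 with the replicate block, 4 at 0.01, 4 with the number series and 4 within the 30s, and those lower 7, 8 and 7 for the last 3 settings. At 0.01 Myc_KO had 7 lower and 6 higher and double_KO 5 higher. Double_KO had 6 higher with the undisputed libraries and 1 lower and 1 higher with the number series.

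With 1 library left out in turn, members lower by description ranged from 11 to 25 in Myc_KO, 2 to 15 in Max_KO and 13 to 26 in double_KO, and members higher from 0 to 2, 1 to 2 and 0 to 2. Other pathway genes ranged from 8 to 16, 5 to 13 and 7 to 14 lower, and 5 to 13, 3 to 8 and 5 to 13 higher. By title, members lower ranged from 23 to 26, 10 to 25 and 17 to 26, and members higher from 0 to 2, 1 to 2 and 1 to 2. Calls by title ranged from 3 to 21 for Max_KO against Myc_KO, 0 to 15 for double_KO against Myc_KO and 0 to 6 for double_KO against Max_KO. The share of all genes called in these fits was not computed. The cause of these differences was not tested.

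The replicate numbers were not shown to pair the libraries: deviations of same-numbered libraries correlated across genes at -0.11 to 0.26 over the 6 pairs of groups, with 2 libraries a group. Scaling to the same total moved the median of all genes to 0.14, 0.13 and 0.16 in Myc_KO, Max_KO and double_KO, and the share of higher calls to 67.3%, 67.5% and 68.6% from 54.5%, 56.3% and 55.2%. The members' medians were then -1.31, -0.66 and -1.24, and -0.97, -0.66 and -1.04 after quantile normalization. Ldhb, with 4 to 12 estimated reads a library, was too low to compare.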
